A study of Mus musculus with 24 samples.

Results

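The genes described here are 9 members of the complement system measured in 2 sorted stromal cell types of the mouse Peyer's patch. They were chosen by name, with earlier results of these data known, as the proteases that open the classical pathway (C1ra, C1s1), its further components (C4b, C2), the central component C3, the alternative pathway genes Cfb and Cfd, and the regulators Serping1 and Cd55. All 9 were matched by gene identifier among the 36528 gene models of the count files, and 8 had enough reads to be tested between cell types. The cells were fibroblastic reticular cells (FRCs), stromal fibroblasts that form the scaffold of lymphoid tissue, and endothelium of high endothelial venules (HEVs), where lymphocytes leave the blood. Mice drank polyethylene glycol (PEG) at 10% w/v for 3 days, given to lower fluid flow, or were left unperturbed (control). There were 24 libraries, namely 7 of FRC PEG, 7 of FRC control, 6 of HEV PEG and 4 of HEV control. Each was made from 1000 cells of 1 mouse, and is named here by its group and library number. Strain, genotype, sex and age were not given in the labels used here, nor was it said whether an FRC and an HEV library came from the same mouse. FRC and HEV libraries were therefore compared as independent samples. No measure of fluid flow is part of these data.

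Complement is a protein cascade of blood and tissue fluid. The proteases C1r and C1s are activated when C1q binds its target, and C1s cleaves C4 and C2, whose fragments form the classical C3 convertase. Factor D cleaves factor B bound to C3b, which forms the convertase of the alternative pathway. C1 inhibitor, encoded by Serping1, inactivates C1r and C1s, while decay-accelerating factor, encoded by Cd55, dissociates the convertases on a cell's own surface. The liver supplies most complement proteins of plasma, and fibroblasts, endothelial cells and macrophages also make some of them locally.

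Depth, as reads assigned to genes, was 15823379 to 21710946 per library in FRC PEG, 12416032 to 18052362 in FRC control, 3115003 (library 16) to 19948766 in HEV PEG and 14392146 to 17160900 in HEV control. The sorted types matched their labels: the summed level of 10 fibroblast markers was 25563 to 36184 CPM in FRC PEG, 25023 to 39116 CPM in FRC control, 6.26 to 62.4 CPM in HEV PEG and 20.0 to 522 CPM in HEV control (CPM is the read count scaled to the assigned reads of its library). The 522 CPM was in HEV control library 9. Not every listed marker followed its sum. Thy1, a gene of the fibroblast list, was near 0 in every group. Its medians were 0.177 CPM in FRC PEG, 0.0554 in FRC control, 0.221 in HEV PEG and 0.208 in HEV control. The summed level of 8 high endothelial venule markers was 23.8 to 83.7 CPM in FRC PEG, 27.0 to 487 CPM in FRC control, 14624 to 22671 CPM in HEV PEG and 14077 to 20951 CPM in HEV control. Chst4 of this list was low, with a median of 3.34 CPM in HEV PEG and 2.85 in HEV control. Markers of pericytes and smooth muscle (8 genes) also separated the sorts, with sums of 3109 to 4397 CPM in FRC PEG and 3012 to 4438 CPM in FRC control, against 23.4 to 178 CPM in HEV PEG and 13.4 to 344 CPM in HEV control. Their part in the differences between FRC and HEV libraries was not tested. The summed level of 14 epithelial markers varied within every group, from 83.6 to 5417 CPM in FRC PEG, 45.2 to 2096 CPM in FRC control, 41.7 to 3762 CPM in HEV PEG and 16.5 to 606 CPM in HEV control. Libraries numbered 1 to 9 stood apart from those numbered 10 to 24 on the first principal component of log2(CPM + 1), with scores of -70.2 to -31.0 against 11.4 to 67.3 in FRCs (22.1% of the variance) and -82.1 to -63.9 against -5.5 to 58.1 in HEV cells (26.9%). Both treatments occur in both sets of each cell type. In HEV cells the split was uneven, with only PEG library 7 and control libraries 8 and 9 among numbers 1 to 9. In bulk RNA, fewer cells of a type and less RNA per cell cannot be told apart.

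The members together took 0.607% to 0.830% of the reads of FRC PEG libraries and 0.500% to 0.884% in FRC control, against 0.0784% to 0.122% in HEV PEG and 0.103% to 0.143% in HEV control. Levels of different genes were compared on the deposited scale that divides by gene length (RPKM adjusted by a size factor of each library). On this scale FRC PEG libraries held most Serping1 (1059.6 ± 129.5, SD), then C1s1 (336 ± 35.5), C3 (293 ± 59.4), C1ra (120.2 ± 27.0), C4b (75.3 ± 15.5), Cfb (59.7 ± 16.4), Cd55 (19.8 ± 3.85) and C2 (19.1 ± 10.2). FRC control libraries had the same order of means except for C2 and Cd55, which changed places at the low end. Between neighbours in the FRC PEG order, the ranges over libraries overlapped for C1s1 and C3, C1ra and C4b, C4b and Cfb, and Cd55 and C2.

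HEV libraries had another order. In HEV PEG libraries Cfb stood first at 121 ± 35.4 adjusted RPKM, followed by C1s1 (57.3 ± 10.8), Serping1 (31.8 ± 10.7), Cd55 (25.2 ± 6.88), C1ra (19.4 ± 8.76) and C2 (2.32 ± 3.85), with C3 at 0.448 ± 0.650 and C4b at 0.0751 ± 0.115. In HEV control libraries Cfb was at 185 ± 33.8, C1s1 at 61.2 ± 6.81, Serping1 at 45.2 ± 17.6, Cd55 at 32.1 ± 14.7, C1ra at 19.7 ± 5.87 and C2 at 1.59 ± 2.07. The ranges of Cfb and of C1s1, its neighbour in the order, did not overlap in either HEV group, while those of Serping1, Cd55 and C1ra did. Cfd was at or near 0 in every group.

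**Figure D1:**
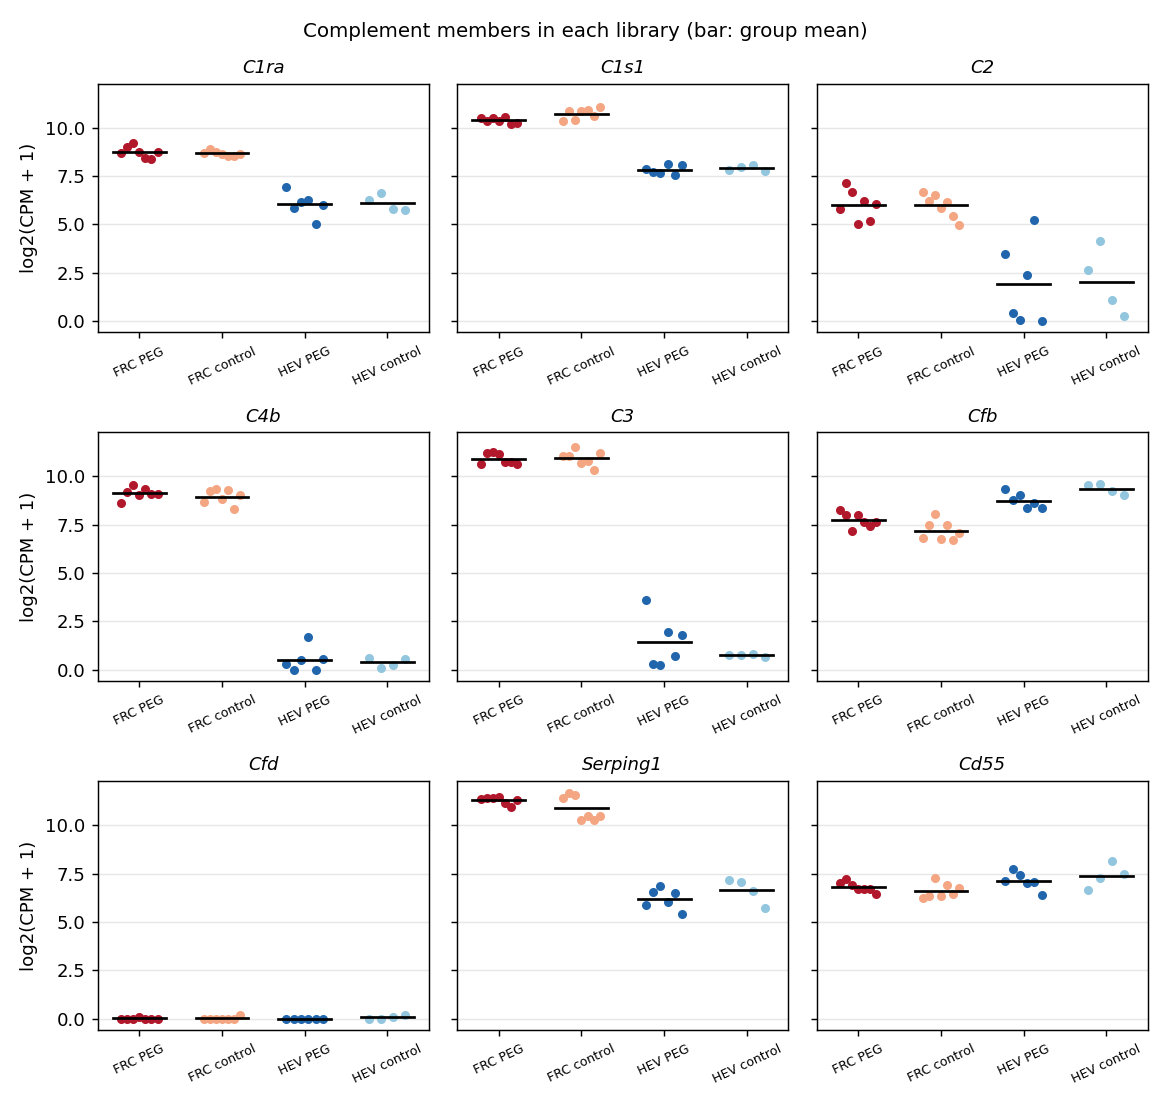
Level of each member in each library, as log2(CPM + 1), with points for libraries and a bar for the group mean (7 for FRC PEG, 7 for FRC control, 6 for HEV PEG and 4 for HEV control). C3 and C4b sit near 0 in HEV libraries, Cfb is higher in HEV than in FRC libraries, and Serping1 falls into 2 separate levels in FRC control.

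Both cell types were first compared in the same condition, to show which complement genes each carries. In FRCs against HEV cells of control mice, 6 of 8 members tested were higher and 1 was lower at an adjusted p under 0.05 (edgeR quasi-likelihood test, Benjamini-Hochberg adjustment over all genes tested), where 14.2% of all 15743 genes tested were higher and 10.4% were lower. In PEG mice 5 of 8 were higher and 1 was lower, where 14.4% of 14991 genes were higher and 12.5% lower. The median log2 fold change of the members was 2.99 in PEG libraries and 3.36 in control libraries, against 0.08 and 0.16 over all genes tested in the same comparisons. The members higher in FRCs under both conditions were C3, C4b, Serping1, C1s1 and C1ra, and the member lower under both was Cfb.

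The promoters of the C1r and C1s proteases and of C3 are shown as those of 3 of the 5 members called higher in FRCs in both comparisons. Those of the other two, C4b and Serping1, were not analysed here. The sequences are those of RefSeq on assembly GRCm38.p6, from 250 bases before to 50 bases after the annotated start, written along the gene's strand. C1ra and C1s1 are neighbours on chromosome 6 with no protein-coding gene between them, and the levels of both are described next. C1ra is shown at chr6:124512371-124512670 on the plus strand, C1s1 (the first of its RefSeq starts listed) at chr6:124542310-124542609 on the minus strand, and C3 at chr17:57228087-57228386 on the minus strand.
C1ra: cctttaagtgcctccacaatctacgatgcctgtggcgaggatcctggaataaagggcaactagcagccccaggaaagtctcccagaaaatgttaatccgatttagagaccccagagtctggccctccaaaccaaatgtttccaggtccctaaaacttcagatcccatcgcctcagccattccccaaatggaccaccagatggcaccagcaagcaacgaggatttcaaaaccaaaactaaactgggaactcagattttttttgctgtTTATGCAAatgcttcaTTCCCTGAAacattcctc
C1s1: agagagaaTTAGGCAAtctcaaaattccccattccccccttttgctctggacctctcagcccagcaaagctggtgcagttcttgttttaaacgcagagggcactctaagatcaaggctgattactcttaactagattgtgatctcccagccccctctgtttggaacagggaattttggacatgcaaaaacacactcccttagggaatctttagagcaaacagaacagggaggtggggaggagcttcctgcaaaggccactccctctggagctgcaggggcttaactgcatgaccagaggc
C3: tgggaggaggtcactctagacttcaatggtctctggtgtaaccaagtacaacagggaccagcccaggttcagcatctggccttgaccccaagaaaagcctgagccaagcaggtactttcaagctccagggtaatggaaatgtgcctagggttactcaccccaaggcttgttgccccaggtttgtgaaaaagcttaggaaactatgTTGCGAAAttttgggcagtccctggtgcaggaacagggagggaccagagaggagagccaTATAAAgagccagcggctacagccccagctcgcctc
Capitals mark matches, on either strand, to any of 3 motifs that were searched. The motifs were the TATA box (TATAAA), found in 13.6% of 32851 promoters of this length on either strand, the C/EBP motif (TTGCNNAA) in 10.8% and the GAS element bound by STAT factors (TTCNNNGAA) in 8.30%. No 2 matches overlapped. C1ra held a C/EBP match at position 17 and a GAS match at 33, counted from the annotated start. C1s1 held a C/EBP match at -242, and C3 a C/EBP match at -45 and a TATA box match at 15. The matches of C1ra and the TATA box match of C3 thus lie after the annotated start, not before it. The window of the other RefSeq start of C1s1, at chr6:124542272-124542571, begins after the C/EBP match and held none, and the windows of Cd55 and Cfd held none either. These matches describe the letters of the window and nothing about binding.

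C1s1 and C1ra were carried by both cell types and were higher in FRCs. C1s1 was at a lowest level of 1182, a median of 1295 and a highest of 1515 CPM in FRC PEG libraries, against 185, 219 and 281 CPM in HEV PEG libraries. In FRC control libraries the lowest, median and highest values were 1301, 1830.4 and 2119 CPM, and the 4 HEV control libraries had 222, 249, 267 and 218 CPM. Every FRC library thus held more C1s1 than every HEV library. The log2 fold change of FRC over HEV was 2.51 ± 0.15 (SE) in PEG libraries and 2.81 ± 0.19 in control libraries, with adjusted p of 3.87e-08 and 6.78e-07 (edgeR).

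C1ra had a lowest level of 328, a median of 419.6 and a highest of 590.1 CPM in FRC PEG, against 30.8, 66.3 and 122 CPM in HEV PEG. In FRC control it ran over 368, 398 and 469 CPM in the same order, and the HEV control libraries had 74.7, 97.8, 53.7 and 52.9 CPM. The cell types did not overlap in either condition. C1ra was 2.51 ± 0.23 log2 units higher in FRCs in PEG libraries (adjusted p = 1.84e-06, edgeR) and 2.44 ± 0.20 in control libraries (adjusted p = 4.63e-06, edgeR). The mouse genome holds a close relative of each gene, C1rb and C1s2, and only uniquely mapped reads were counted, so the split of reads between them is uncertain. C1ra took 81.1% to 89.2% of the reads of C1ra and C1rb together over all 24 libraries, and C1s1 took 91.9% to 96.9% of those of C1s1 and C1s2.

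C4b, which encodes the C4 that C1s cleaves, and C3, on which all pathways converge, were abundant in FRCs and nearly without reads in HEV cells. C3 had a lowest level of 1568, a median of 1745 and a highest of 2443 CPM in FRC PEG, and 1299, 2114 and 2917 CPM in FRC control. The HEV PEG libraries 7, 14, 15, 16, 22 and 23 had 11.2, 0.224, 0.201, 2.89, 0.632 and 2.42 CPM, and the HEV control libraries 8, 9, 17 and 24 had 0.696, 0.699, 0.750 and 0.556 CPM. HEV PEG library 7 stood above the other HEV libraries, with 140 of the 200 C3 reads of its group. Its summed fibroblast markers, at 6.26 CPM, were the lowest of the HEV PEG libraries. Its summed macrophage and dendritic cell markers, at 77.0 CPM, were the highest of these. HEV PEG library 14 had 70.6 CPM of the latter markers, and a higher mean log2(CPM + 1) of them (1.93 against 1.54). HEV control libraries 8 and 24 had 146 and 245 CPM of them, with C3 at 0.696 and 0.556 CPM. Library 7 was also the only HEV PEG library with reads of the C1q chain genes C1qa (33.2 CPM) and C1qc (16.4 CPM). The HEV control group also held C1qa reads, given below, with C3 at 0.556 to 0.750 CPM in its libraries. The part of other cells in the C3 level of library 7 was not tested.

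The pooled C3 rate was 786 times as high in FRC PEG as in HEV PEG (95% interval 685 to 908) and 2982 times as high in FRC control as in HEV control (2206 to 4137; exact binomial intervals, which cover counting error only). The fitted log2 fold changes were 9.64 ± 0.92 (SE) in PEG libraries and 11.42 ± 0.33 in control libraries, with adjusted p of 7.28e-06 and 4.33e-09 (edgeR). C3 ranked 1 by p among all genes tested between control libraries. Without HEV PEG library 7 the fitted value in PEG libraries was 10.78.

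C4b was likewise abundant in FRC libraries and near 0 in HEV libraries. It ran over 397, 552 and 764 CPM (lowest, median, highest) in FRC PEG and over 313, 529 and 654 CPM in FRC control. HEV PEG libraries had 0.241, 0, 0.401, 2.25, 0 and 0.484 CPM, 25 reads in all, and HEV control libraries had 0.506, 0.0583, 0.205 and 0.486 CPM, 19 reads in all. No HEV library came near the lowest FRC library. Pooled C4b was 1830 times as high in FRC PEG as in HEV PEG (95% interval 1239 to 2827, exact binomial) and 1656 times as high in FRC control as in HEV control (1061 to 2751). The fitted log2 fold changes were 10.65 ± 0.81 in PEG libraries and 10.57 ± 0.55 in control libraries, with adjusted p of 6.85e-07 and 1.04e-07 (edgeR).

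C4a, a near-identical relative of C4b on the same chromosome, had the same distribution over cell types. C4a averaged 433 ± 81.6 CPM in FRC PEG and 381 ± 87.2 CPM in FRC control (SD), against 0.729 ± 1.08 CPM in HEV PEG and 0.346 ± 0.256 CPM in HEV control. C4b held 54.3% to 61.2% of the uniquely mapped reads of the pair in FRC PEG libraries and 53.7% to 62.0% in FRC control, so the division of reads within the pair is uncertain.

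C2, the protease component of the classical convertase, varied widely among the libraries of each group, with a coefficient of variation of CPM of 52.9% in FRC PEG, 38.2% in FRC control, 167% in HEV PEG and 131% in HEV control. It had a lowest level of 31.7, a median of 64.2 and a highest of 138 CPM in FRC PEG, and 29.9, 70.4 and 100.1 CPM in FRC control. In HEV PEG libraries 7, 14, 15, 16, 22 and 23 it was at 10.2, 0.336, 0.0501, 4.17, 36.3 and 0 CPM, and in HEV control libraries 8, 9, 17 and 24 at 5.25, 16.8, 1.09 and 0.208 CPM. FRC and HEV libraries overlapped in PEG mice through HEV PEG library 22, and not in controls. C2 was higher in FRCs of control mice by 3.92 ± 0.73 log2 units (adjusted p = 0.00195, edgeR). In PEG libraries the log2 fold change was 3.48 ± 1.29 with an adjusted p of 0.0671 (edgeR). Of 13 fits that each left out 1 library, only 2 called C2, and the largest adjusted p was 0.134 (edgeR). The log2 fold change was 5.04 with an adjusted p of 0.00527 without HEV PEG library 22, and 3.30 with an adjusted p of 0.0400 without library 23 (edgeR). The DESeq2 Wald test gave C2 an adjusted p of 0.0160 over all libraries.

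Factor B, the counterpart of C2 in the alternative pathway, went the other way. Cfb had a lowest level of 141, a median of 199 and a highest of 309 CPM in FRC PEG, against 651, 435, 519.7, 325, 398 and 329 CPM in HEV PEG libraries 7, 14, 15, 16, 22 and 23. It was at 103, 134 and 267 CPM (lowest, median, highest) in FRC control, against 754, 777, 601 and 528 CPM in HEV control libraries 8, 9, 17 and 24. Every HEV library held more Cfb than every FRC library. The log2 fold change of FRC over HEV was -1.12 ± 0.21 in PEG libraries and -2.30 ± 0.25 in control libraries, with adjusted p of 0.00103 and 3.55e-05 (edgeR). Among libraries 1 to 9 alone, which hold a single HEV PEG library, Cfb had a log2 fold change of -1.49 in PEG libraries and an adjusted p of 0.145 (edgeR). C2 and Cfb are neighbours on chromosome 17 with 87 bases and no protein-coding gene between them. Whether reads of 1 of these genes were counted for the other was not tested.

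Cfd encodes factor D, known as adipsin for its expression in fat cells. It had 1 read in FRC PEG, 2 in FRC control, 0 in HEV PEG and 3 in HEV control libraries, 6 reads among 375809380. A count of 0 in the HEV PEG group allows up to 0.0373 CPM, the rate of 3 reads in its total. Cfd was tested in no comparison, and the protease that activates factor B was thus at or under the floor of detection in both cell types.

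Serping1 was the most abundant member in FRCs per length. It had a lowest level of 1989, a median of 2595 and a highest of 2799.8 CPM in FRC PEG, against 40.8, 77.6 and 113 CPM in HEV PEG. In FRC control it ran over 1251, 1430.1 and 3297 CPM, and HEV control libraries 8, 9, 17 and 24 had 142, 131, 97.3 and 51.6 CPM. The cell types did not overlap in either condition. FRCs exceeded HEV cells by 5.06 ± 0.25 log2 units in PEG libraries (adjusted p = 5.28e-09, edgeR) and by 3.94 ± 0.26 in control libraries (adjusted p = 6.78e-07, edgeR).

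Cd55 had the smallest log2 fold change between cell types, in size, of the 8 members tested. It had a lowest level of 86.3, a median of 104 and a highest of 148 CPM in FRC PEG, against 83.5, 136 and 213 CPM in HEV PEG. In FRC control it ran over 74.6, 84.8 and 152 CPM, and HEV control libraries 8, 9, 17 and 24 had 98.0, 155, 288 and 178 CPM. The cell types overlapped in both conditions. Its log2 fold change was -0.41 ± 0.20 in PEG libraries and -0.78 ± 0.32 in control libraries, with adjusted p of 0.151 and 0.103 (edgeR). Between control libraries, only 2 of 11 fits that each left out 1 library called Cd55. Leaving out HEV control library 8 gave -1.15 with an adjusted p of 0.0383, and leaving out FRC control library 6 gave -0.92 with 0.0334 (edgeR). Without HEV control library 17 the log2 fold change was -0.57, and the largest adjusted p of the 11 fits was 0.249 (edgeR). Cd55 took 95.7% to 98.8% of the unique reads of itself and its relative Cd55b.

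**Figure D2:**
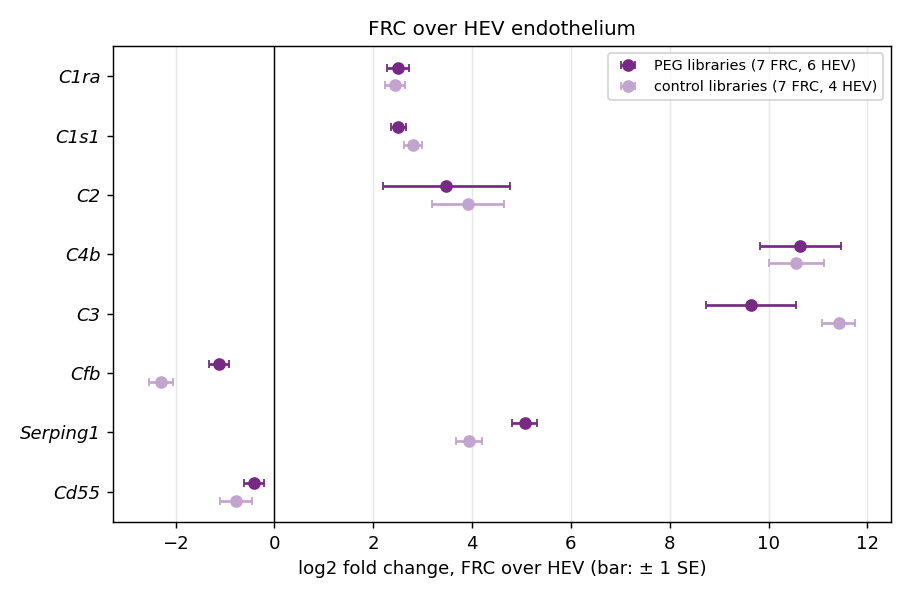
Log2 fold change of FRC over HEV libraries for the 8 members tested, in PEG libraries (7 FRC, 6 HEV) and in control libraries (7 FRC, 4 HEV), with bars of 1 SE. C3 and C4b lie at 9.64 or above, while Cfb and Cd55 lie below 0 in both conditions.

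The other complement genes were a list of 50, of which 32 could be tested between control libraries and 28 between PEG libraries. Against the background shares given above, 10 of the 28 were higher and 3 lower in FRCs of PEG mice, and 9 of the 32 were higher and 1 lower in FRCs of control mice. The median log2 fold change of the genes of this list that were tested was 0.59 in PEG libraries and 1.03 in control libraries. There were 28 listed genes with a mean of at least 5 CPM in at least 1 group.

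**Figure D3:**
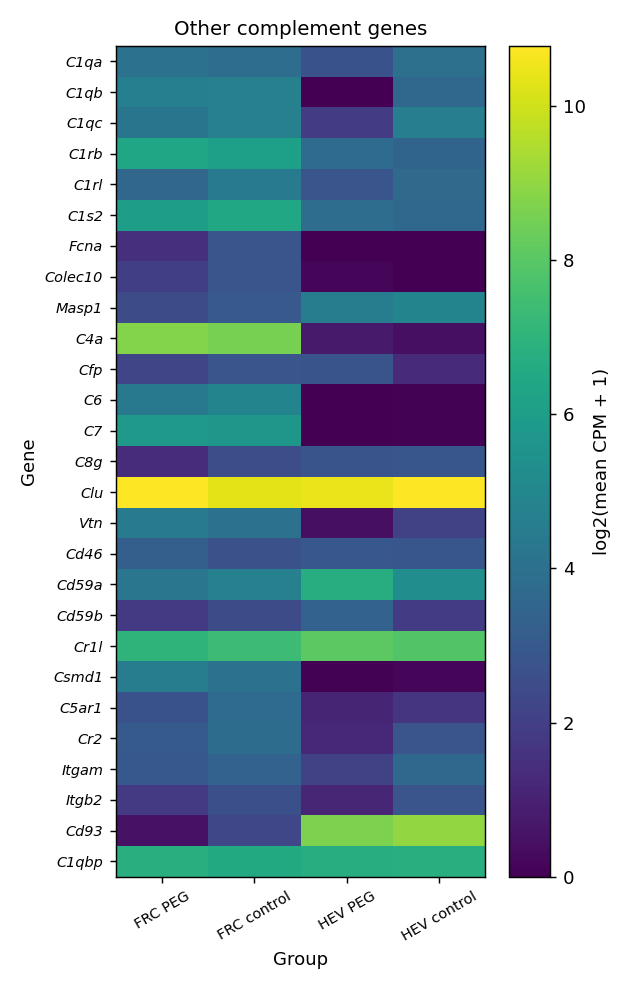
Group means of 27 of the 28 other complement genes with at least 5 CPM in a group, as log2(mean CPM + 1), with 1 column for each group of libraries. C4a, C6 and C7 are bright in FRC columns and dark in HEV columns, Cd93 shows the opposite, and Clu is high in all 4 groups.

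Among initiating genes, the C1r and C1s relatives C1rb and C1s2 were higher in FRCs in both conditions. C1rb had log2 fold changes of 2.50 ± 0.31 in PEG and 2.64 ± 0.32 in control libraries, with adjusted p of 2.95e-05 and 9.50e-05 (edgeR). C1s2 had 2.23 ± 0.33 and 2.98 ± 0.32, with adjusted p of 0.000172 and 3.81e-05 (edgeR). The C1q chains, made mainly by macrophages and dendritic cells, were low and uneven. C1qa averaged 15.3 ± 5.42 CPM in FRC PEG, 13.3 ± 2.37 in FRC control, 5.54 ± 13.6 in HEV PEG and 14.6 ± 17.1 in HEV control. C1qb had 0 reads in all 6 HEV PEG libraries and a mean of 24.0 ± 17.8 CPM in FRC PEG. C1qb and C1qc passed the test between PEG libraries (adjusted p = 0.000588 and 0.0187, edgeR) and none of the 3 chains did between control libraries. The summed level of 8 macrophage and dendritic cell markers was 70.6 to 282 CPM in FRC PEG, 34.7 to 159 CPM in FRC control, 28.6 to 77.0 CPM in HEV PEG and 61.6 to 245 CPM in HEV control, and its part in the C1q levels was not tested. The lectin pathway genes Colec10, a collectin, and Fcna, a ficolin, were higher in FRC controls than in HEV controls, at means of 6.2 CPM each. Their log2 fold changes there were 7.93 ± 1.70 and 9.47 ± 2.93, with adjusted p of 0.00483 and 0.0450 (edgeR). Neither had enough reads to be tested between PEG libraries.

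Of the terminal components, which build the membrane attack complex, C6 and C7 were carried by FRCs. C7 averaged 56.0 ± 26.0 CPM in FRC PEG and 51.3 ± 29.8 CPM in FRC control, with 0 reads in HEV PEG and 2 reads in HEV control. C6 averaged 19.4 ± 13.4 CPM in FRC PEG and 28.3 ± 15.6 CPM in FRC control, with 1 read in HEV PEG and 2 in HEV control. Both were higher in FRCs in PEG and in control libraries, with adjusted p of 3.34e-06 and 2.23e-06 for C7 and 2.06e-05 and 3.75e-05 for C6 (edgeR). C8a, C8b and C9, which encode later subunits of the complex, had at most 3 reads in any group. C8g, which encodes the remaining subunit of C8, was low in all groups, at 1.61 ± 2.14 CPM in FRC PEG and 4.91 ± 5.60 CPM in FRC control, against 5.97 ± 5.23 CPM in HEV PEG and 6.47 ± 5.37 CPM in HEV control. Its adjusted p between cell types was 0.292 in PEG and 0.800 in control libraries (edgeR).

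Among soluble regulators, clusterin (Clu), which binds terminal complexes in fluid, was high in both cell types, at 1754 ± 770 CPM in FRC PEG, 1276 ± 248 in FRC control, 1425 ± 244 in HEV PEG and 1717 ± 549 in HEV control. Its adjusted p between cell types was 0.217 in PEG and 0.212 in control libraries (edgeR). Vitronectin (Vtn) was higher in FRCs of PEG mice (6.40 ± 1.16 log2 units, adjusted p = 0.000813, edgeR). In control libraries its log2 fold change was 4.40 ± 2.35 with an adjusted p of 0.214 (edgeR).

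The surface regulators and receptors differed in direction. Cr1l, the mouse convertase regulator Crry, averaged 126 ± 38.8 CPM in FRC PEG and 166 ± 56.5 in FRC control, against 267 ± 109 in HEV PEG and 228 ± 57.5 in HEV control. It was lower in FRCs in PEG libraries (-1.02 ± 0.26, adjusted p = 0.00841, edgeR), as was Cd59a, an inhibitor of the membrane attack complex (-2.19 ± 0.64, adjusted p = 0.0206, edgeR). In control libraries the log2 fold changes were -0.38 ± 0.21 for Cr1l and -0.46 ± 0.48 for Cd59a, with adjusted p of 0.230 and 0.552 (edgeR). Csmd1, a membrane protein with complement control repeats, was higher in FRCs in PEG and control libraries (adjusted p = 1.16e-05 and 0.000230, edgeR). Cd93, an endothelial surface protein once described as a C1q receptor, was at 0.458 ± 0.902 CPM in FRC PEG and 3.89 ± 5.14 in FRC control, against 406 ± 195 in HEV PEG and 527 ± 239.6 in HEV control. Its log2 fold change of FRC over HEV was -10.35 ± 1.07 in PEG libraries and -7.74 ± 1.18 in control libraries, with adjusted p of 1.51e-05 and 0.000822 (edgeR).

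The comparison of PEG with control mice within a cell type asked what PEG in the drinking water changed. No member passed the adjusted threshold in either cell type. In FRCs 0 of 14595 genes tested did (0% of genes), and 3 of 8 members had an unadjusted p under 0.05 where 6.78% of genes did (989; edgeR). In HEV cells 0 of 14308 genes passed (0% of genes), and 1 of 7 members had an unadjusted p under 0.05 where 6.19% of genes did (886; edgeR). The DESeq2 Wald test called 57 genes in FRCs (0.391% of genes) and 116 in HEV cells (0.811%), none of them a member. The difference between the PEG effects of both cell types was called for 2 of 18203 genes (0.011%), neither of them a member, and 2 of 8 members had an unadjusted p under 0.05 where 10.1% of genes did (edgeR). The members' median log2 fold change was 0.17 in FRCs and -0.16 in HEV cells, against 0.01 and 0.01 over all genes tested.

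**Figure D4:**
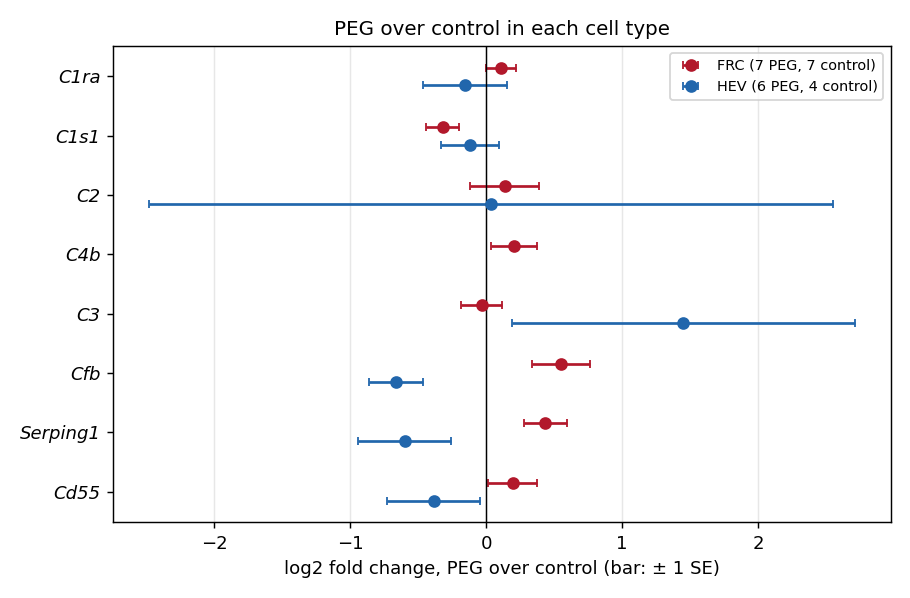
Log2 fold change of PEG over control libraries for the members tested in FRCs (7 PEG, 7 control) and in HEV cells (6 PEG, 4 control), with bars of 1 SE. C4b was not tested in HEV cells, and Cfb lies at 0.55 in FRCs and at -0.66 in HEV cells.

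Cfb was the member with the smallest p for a difference between cell types in the PEG effect. In FRC PEG libraries 1, 2, 3, 10, 11, 18 and 19 it was at 309, 254, 141, 259, 198, 169 and 199 CPM, against 112, 180.3, 267, 106, 177, 103 and 134 CPM in FRC control libraries 4, 5, 6, 12, 13, 20 and 21. All 7 PEG libraries lay above the control median, but the ranges overlapped. The log2 fold change in FRCs was 0.55 ± 0.21 with an unadjusted p of 0.0214 and an adjusted p of 0.657 (edgeR). With the sequencing index i5 as a further term it was 1.02 ± 0.24 (unadjusted p = 0.000691, adjusted p = 0.785, edgeR).

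In HEV cells Cfb averaged 443 ± 125 CPM in PEG libraries and 665 ± 120.4 CPM in control libraries (SD), and 5 of 6 PEG libraries lay under the lowest control library. Libraries numbered 1 to 9 were the highest of each group, at 651 CPM in PEG library 7 and at 754 and 777 CPM in control libraries 8 and 9. The log2 fold change was -0.66 ± 0.20 with an unadjusted p of 0.00679 and an adjusted p of 0.794 (edgeR). The PEG effect was 1.20 ± 0.31 log2 units larger in FRCs than in HEV cells, with an unadjusted p of 0.000634 and an adjusted p of 0.185 (edgeR), so it did not pass. The DESeq2 Wald test gave an adjusted p of 0.0282 for this difference, where it called 1.99% of 18203 genes. Library 9 is the only HEV control in its inferred sequencing pool (libraries 9 to 16), beside PEG libraries 14, 15 and 16. The pool is a term of the edgeR fits. With the i5 index, which separates FRC PEG from HEV PEG libraries, as a further term, 0 of 18203 genes were called for this difference (edgeR).

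Serping1 had a log2 fold change of 0.44 ± 0.16 in FRCs with PEG (unadjusted p = 0.0139, adjusted p = 0.631, edgeR). FRC PEG libraries 1, 2, 3, 10, 11, 18 and 19 had 2595, 2756, 2724, 2799.8, 2299, 1989 and 2497 CPM, against 2703, 3297, 3001, 1251, 1430.1, 1252 and 1423 CPM in FRC control libraries 4, 5, 6, 12, 13, 20 and 21. The PEG libraries were alike, whereas the controls fell into a high set (4, 5 and 6) and a low set (12, 13, 20 and 21). These sets follow the library numbers in the labels, 1 to 9 and 10 to 24, and the labels do not say what sets them apart.

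In libraries 10 to 24, all 4 FRC PEG libraries held more Serping1 than all 4 FRC controls, at 2396 ± 341 against 1339 ± 101 CPM (SD), and the log2 fold change was 0.87 ± 0.13 (unadjusted p = 5.17e-05, adjusted p = 0.171, edgeR). Of 15359 genes tested in these libraries, 1589 had an unadjusted p under 0.05 and 0 passed the adjusted threshold (edgeR). How many of all genes separate the groups in this way was not counted. In libraries 1 to 9 it was 2692 ± 84.9 CPM in 3 FRC PEG libraries against 3000.2 ± 297 CPM in 3 FRC controls, and the log2 fold change was -0.15 ± 0.11 (adjusted p = 0.999, edgeR). The pooled direction did not hold in libraries 1 to 9. The difference between the PEG effects of the later and the earlier libraries was 1.02 ± 0.17 log2 units for Serping1 (unadjusted p = 3.74e-05, adjusted p = 0.206, edgeR), a test added after seeing the data. In that test 0.00685% of 14595 genes passed the adjusted threshold and 7.93% had an unadjusted p under 0.05, and no member passed. In HEV cells Serping1 had a log2 fold change of -0.60 ± 0.34 with PEG (adjusted p = 0.829, edgeR), and PEG and control libraries overlapped.

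C1s1, the protease that C1 inhibitor blocks, had the opposite sign in FRCs. FRC PEG libraries 1, 2, 3, 10, 11, 18 and 19 had 1433, 1281, 1419, 1295, 1515, 1182 and 1216 CPM, against 1301, 1862, 1324, 1830.4, 1939, 1533 and 2119 CPM in FRC control libraries 4, 5, 6, 12, 13, 20 and 21. The groups overlapped through the control libraries 4 and 6, while in libraries 10 to 24 every PEG library was below every control. The number of all genes that separate these libraries in this way was not counted. The log2 fold change was -0.32 ± 0.12 over all FRC libraries (unadjusted p = 0.0176, adjusted p = 0.642, edgeR). It was -0.49 ± 0.14 in libraries 10 to 24 and -0.11 ± 0.17 in libraries 1 to 9, with adjusted p of 0.253 and 0.999 (edgeR). With the i5 index as a further term it was -0.17 ± 0.15, and with the epithelial marker level -0.23 ± 0.15.

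**Figure D5:**
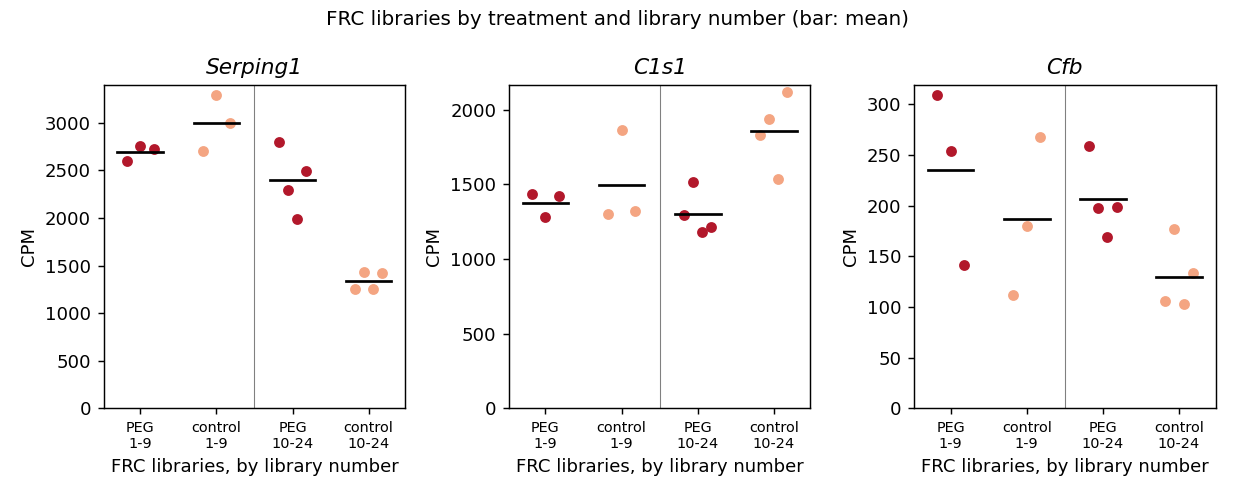
CPM of Serping1, C1s1 and Cfb in FRC libraries, split by treatment and by library number (3 PEG and 3 control libraries numbered 1 to 9, 4 PEG and 4 control libraries numbered 10 to 24), with points for libraries and a bar for the mean. Serping1 in controls is at 2703 to 3297 CPM in the first set and at 1251 to 1430.1 CPM in the second.

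The remaining members differed less between PEG and control libraries of FRCs. The log2 fold changes were 0.21 ± 0.17 for C4b, 0.19 ± 0.18 for Cd55, 0.14 ± 0.25 for C2, 0.11 ± 0.11 for C1ra and -0.03 ± 0.15 for C3, none with an unadjusted p under 0.05 (edgeR). In HEV cells they were -0.39 ± 0.34 for Cd55, -0.16 ± 0.31 for C1ra, -0.12 ± 0.21 for C1s1, 1.45 ± 1.26 for C3 and 0.03 ± 2.51 for C2 (edgeR). The C3 value rests on few reads, and was 0.70 without HEV PEG library 16. The C2 value was -2.93 without HEV PEG library 22 and 3.56 without HEV control library 9, so single libraries set its sign.

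Epithelial marker levels varied widely in every group, and PEG and control libraries overlapped in both cell types. Their mean log2(CPM + 1) ran from 1.53 to 7.54 with a median of 3.71 in FRC PEG, and from 0.59 to 5.30 with a median of 1.94 in FRC control. In HEV PEG it ran from 0.80 to 6.87 with a median of 5.03, and in HEV control from 0.67 to 4.23 with a median of 3.99. With this level as a further term, the log2 fold changes of PEG over control in FRCs were 0.79 ± 0.29 for Cfb and 0.55 ± 0.21 for Serping1. All FRC PEG libraries also carry 1 of the 2 i5 indexes and all HEV PEG libraries the other one, while controls of both types carry either. Of the 50 other complement genes, 30 were tested in FRCs and 22 in HEV cells, and none was called in either. In FRCs Clu had the smallest p, with a log2 fold change of 0.40 ± 0.15 and an adjusted p of 0.647 (edgeR).

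The genes most like each member were sought among 11852 genes with a mean of at least 5 CPM over the 24 libraries. The measure was the root mean square difference of centred log2(CPM + 1) over these libraries. C4b was closest to Pdgfra, a growth factor receptor of fibroblasts (0.33 log2 units), and to Hsd11b1 (0.40), where its own spread was 4.26. C3 was closest to the matrix protease Mmp10 (0.71) and to Pdgfra (0.85), with a spread of 4.87. Serping1 was closest to Fmo2 (0.49) and Nbl1 (0.58), with a spread of 2.38. C1s1 was closest to Scpep1 (0.36) and Ltbp4 (0.40), and C1ra to Scpep1 (0.38) and its antisense neighbour Scpep1os (0.39), which reads without strand cannot separate. Cfb was closest to Hnrnpf (0.33) and Cd81 (0.35), Cd55 to Atp2b1 (0.34) and Gm16083 (0.35), and C2 to Mfap3l (0.94) and Psd3 (0.95). The differences were large beside the member's own spread for C2 (2.34), for Cfb (0.89) and most of all for Cd55 (0.47). For Cfd, with 6 reads, no likeness was read.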

How the data were processed

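RNA of sorted cells was sequenced in 24 libraries. Per the labels' protocols, polyA RNA was amplified by template switching, tagged by transposase, filtered for quality, ribosomal and adapter reads, and only unique alignments were kept. Per the submitters' processing notes, alignment was by GSNAP to mm9. The labels' protocol text names a human build, yet the identifiers are mouse genes. Versions and the gene annotation are not given in the sources used here. Per the file headers, each deposited file holds raw read counts and a second value, which the authors computed as RPKM adjusted by a size factor (called nRPKM). In all 10335 genes with reads in every library it equalled the count over the size factor, times a fixed gene constant, within a relative 1e-06.

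Gene symbols came from RefSeq (assembly GRCm38.p6), which named 85.0% of identifiers, holding 97.3% of reads. CPM used the total of assigned reads. Counts were filtered with filterByExpr (count minimum 10). TMM scaling was used, and the robust quasi-likelihood test of edgeR 4.0.16 (R 4.3.3) was run with an inferred sequencing pool (libraries 1 to 8, 9 to 16 and 17 to 24) as covariate, and p-values were adjusted by Benjamini-Hochberg over all genes tested. The code was tested on simulated data. Alternatives were DESeq2 (1.42.0) size factors or its Wald test, the submitters' size factors, no filter, other covariates, libraries 1 to 9 or 10 to 24 alone, and each library left out in turn. Members, gene lists and tests were chosen with earlier results of these data known. All 9 members are named, the other complement genes from a mean of 5 CPM in a group, and for each member the 2 genes most like it. A gene that this rule names is not reported here. C8a, C8b and C9 lie outside this rule and were named after their values were seen, and the test of the PEG effect between libraries 10 to 24 and 1 to 9 was added then. Within a cell type, p-values rest on the spread between mice. Between cell types, libraries may share a mouse.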

Additional observations from a re-analysis of the deposited data

Results flagged for a closer look

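In groups of 4 to 10 libraries, 1 library was set against the others by the gap to its nearest neighbour as a share of the group's range (Dixon's 95% criterion). Chance marks about 1 in 20 groups of normally distributed values, and 35 groups of members with any spread were examined. Low counts need not follow that distribution, and a group with reads in 1 library only is always marked. The number of flags was therefore not set against that rate. C3 in HEV PEG library 7 was at 11.2 CPM, above the next library at 2.89 CPM. C4b in HEV PEG library 16, the library of least depth, was at 2.25 CPM, above the next at 0.484 CPM. C2 in HEV PEG library 22 was at 36.3 CPM, above the next at 10.2 CPM. Cfd was at 0.0598 CPM in FRC PEG library 10 and at 0.123 CPM in FRC control library 21, which stand for 1 and 2 reads beside groups otherwise at 0.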

How the results depend on the processing

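Over 10 alternatives to the main processing (9 between PEG libraries, where the i5 index as covariate could not be fitted because it follows the cell type), no member changed direction between FRC and HEV libraries. The calls of C3, C4b, Serping1, C1s1 and C1ra remained in all of these and with each library left out. Cfb was not called between PEG libraries 1 to 9 alone (-1.49), and Cd55 was called between controls without a covariate (-0.91), with libraries 1 to 9 against 10 to 24 as covariate (-0.89) and in libraries 10 to 24 alone (-1.40). C2 was called between PEG libraries without the filter on low counts (3.52) and by DESeq2 (3.45). For PEG in FRCs, 1 member, Serping1, was called without the filter (adjusted p = 0.0463, edgeR). There 177 of 28700 genes were called (0.617%), against 0 of 14595 with the filter. For the difference of PEG effects, 1 member, Cfb, was called by DESeq2, where 362 of 18203 genes were called (1.99%) against 2 (0.011%). In libraries 1 to 9 alone this difference was -4.17 for C3. Libraries 1 to 9 hold 1 HEV PEG library, number 7, which has the highest C3 of its group and is there assumed to vary like the other groups. The C3 value thus rests on library 7. Some values changed sign. In FRCs with PEG these were C3 with the i5 index (0.22), the epithelial marker level (0.087) or libraries 10 to 24 alone (0.057), and Serping1, at 0.44 over all libraries, in libraries 1 to 9 alone (-0.15). In HEV cells they were C2 without the filter (-0.013), with the epithelial level (-1.01) and in libraries 1 to 9 (-0.078), C1s1 with the i5 index (0.049) and in libraries 1 to 9 (0.0078), C1ra with the i5 index (0.13), the library-number covariate (0.22) and libraries 1 to 9 (0.53), and Cd55, at -0.39 over all libraries, in libraries 1 to 9 (0.15). For the difference they were C4b by DESeq2 (-0.011), without a covariate (-0.034) and with the library-number covariate (-0.0053), C1ra with that covariate (-0.042) and in libraries 1 to 9 (-0.30), and C2, at -0.43 over all libraries, in libraries 1 to 9 (0.24). The cause of these changes was not tested. With each library left out, PEG in FRCs ranged from -0.11 to 0.086 for C3 and from -0.00151 to 0.28 for C2, PEG in HEV cells from -2.93 to 3.56 for C2 and from -0.39 to 0.076 for C1ra, and the difference from -0.31 to 0.59 for C4b, from -2.40 to 1.78 for C2 and from -0.058 to 0.37 for C1ra. Scaling CPM by TMM moved no group mean of a member by more than its SD. CPM in place of the per-length value put C3 before C1s1 and C4b before C1ra in both FRC groups, Cd55 before C2 in FRC control, and Cd55 before Serping1 in both HEV groups, with Cfd left aside. No paired analysis was possible because library numbers are unique and nothing in the labels links libraries of 1 mouse. HEV PEG library 16, at 3115003 reads, limits low genes most.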
